A study of Mus musculus with 9 samples.

Results

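The MAP kinase phosphatase genes Dusp1, Dusp4, Dusp5, Dusp6 and Dusp14, the Sprouty genes Spry1, Spry2 and Spry4 and the Sprouty-related genes Spred1 and Spred2 were followed through 9 libraries of mouse brain RNA. They were taken by name as feedback inhibitors of the ERK kinase pathway, with earlier results of these data known. This gave 10 genes among the 18138 in the count table. Every one of the 10 had enough counts to be tested, in a table where 14756 genes did. The libraries formed 3 groups of 3: mice that had MCAO surgery (occlusion of the middle cerebral artery, which models stroke) followed by 7 days of hypidone hydrochloride at a dose of 5 mg/kg, mice with MCAO surgery alone, and control mice. The sources used here give no strain, age, brain region, hemisphere, vehicle, sham surgery or time of sampling. The labels say nothing of separate animals behind the libraries of a group, so every p-value measures the spread between these libraries, which may be technical. A library's name joins its group and its title's number.

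Growth factors, neurotrophins and synaptic activity switch on Ras, which acts through the kinases RAF and MEK to phosphorylate ERK. ERK enters the nucleus and induces early genes, among them genes for its own inhibitors, so that many of these inhibitor transcripts are used as readouts of recent ERK activity. The phosphatases remove the activating phosphates from ERK and, for some of them, from the stress kinases JNK and p38. Sprouty and SPRED proteins act higher up, at the membrane, where they hold back the activation of Ras and RAF. In brain, Dusp1, Dusp4, Dusp5 and Dusp6 are known as genes that neuronal activity or injury can induce within a short time.

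In MCAO libraries Spry1 was higher and Spred2 lower than in control libraries, and with hypidone after MCAO both differed from MCAO alone in the opposite direction. The log2 fold changes for MCAO against control were 0.84 ± 0.20 (SE) for Spry1 and -0.72 ± 0.11 for Spred2, with 3 libraries a group. For hypidone against MCAO they were -1.14 ± 0.20 for Spry1 and 0.78 ± 0.11 for Spred2. The other 8 genes passed the test in neither comparison. The MCAO libraries also differed among themselves, since Dusp1, Dusp4, Dusp5, Dusp6 and Spry4 stood far higher in MCAO 6 than in MCAO 4 and MCAO 5.

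Libraries held 32075682 to 37325027 gene counts. The biological coefficient of variation was 14.5% within the hypidone group, 41.5% within MCAO and 29.3% within control. Control 5 stood apart from the other controls: the summed level of 6 hippocampal neuron markers was 562 CPM (counts relative to the scaled library total) there, against 118 to 217 CPM in the other 8 libraries, and that of 6 choroid plexus markers was 196 CPM, against at most 11.4 CPM. MCAO 5 had the most macrophage and monocyte marker counts, with 1951 CPM over 6 genes, against 266 CPM in MCAO 6 and 58.5 CPM in MCAO 4. Macrophage markers rose in 3 of 6 cases with MCAO and fell in 2 of 6 with hypidone against MCAO. Beside the marker counts here and below, 10.6% of all tested genes were higher and 9.81% lower with MCAO. With hypidone against MCAO 8.23% were higher and 8.28% lower. For MCAO against control 1 oligodendrocyte, 1 cortical neuron, 2 hippocampal and 1 choroid plexus marker fell, and no striatal marker passed the test in any comparison. Hippocampal sums in MCAO, at 149 to 217 CPM, lay below control 5 alone and above control 4 and 6, at 130 and 118 CPM. Choroid plexus sums were 3.16 to 11.4 CPM in MCAO, and 5.49 and 2.16 CPM in control 4 and 6. Of the oligodendrocyte precursor markers 1 rose with MCAO and 1 fell with hypidone against MCAO. Summed striatal markers were at 233 to 275 CPM with hypidone, 238 to 425 CPM in MCAO and 91.8 to 294 CPM in control. The 6 pan-neuronal markers, detected in every library of this brain tissue, summed to 4492 to 10425 CPM.

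**Figure D1:**
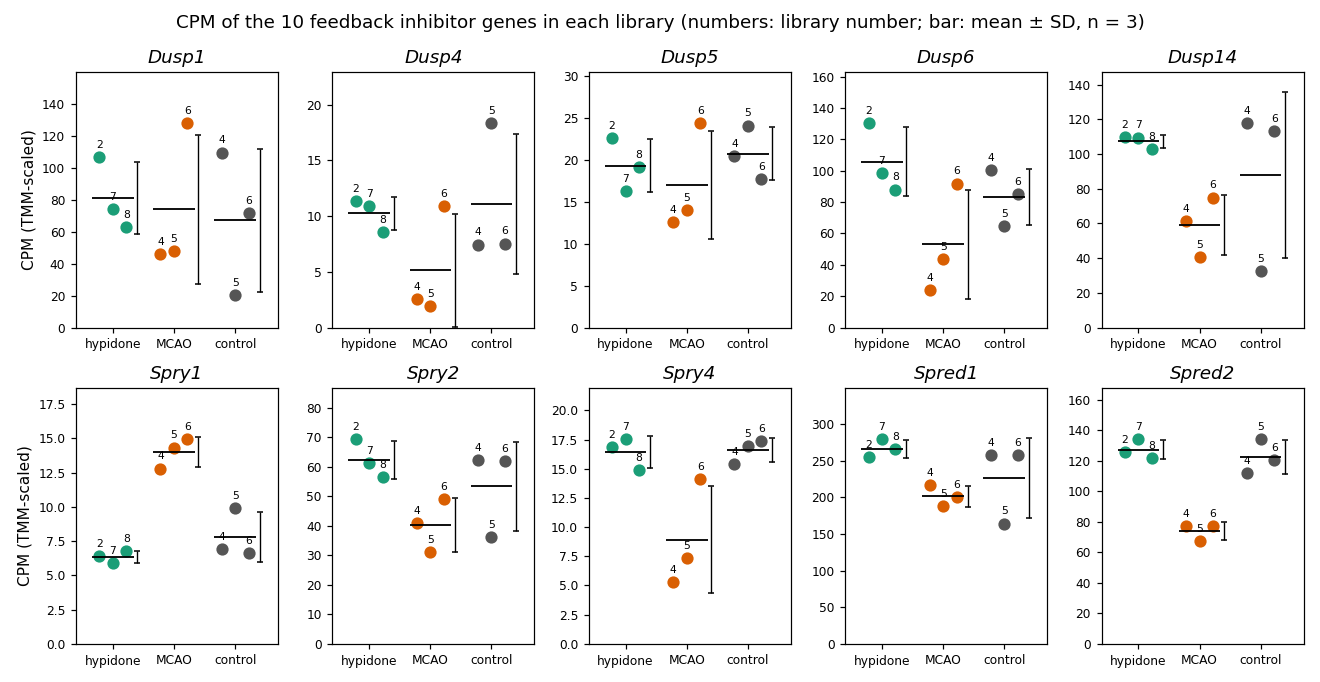
CPM (scaled between libraries with TMM factors, linear axes from 0) of each of the 10 genes in the hypidone, MCAO and control groups. Each point is 1 library with its number, horizontal lines are group means and the bars at the right of each group are ± 1 SD (n = 3). Spry1 is high and Spred2 low in every MCAO library, whereas Dusp1, Dusp4, Dusp5, Dusp6 and Spry4 have MCAO 6 above MCAO 4 and MCAO 5.

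Spry1 was the only member that rose with MCAO. It encodes a Sprouty protein that is made in response to growth factors and restrains receptor tyrosine kinase signalling. Its gene lies on the plus strand of mm10 at chr3:37639947-37644598, where its exons overlap a predicted gene on the other strand. The sources used here do not give the strand setting of the counting, so whether reads of the pair were kept apart is not known. Spry1 was at 6.39, 5.90 and 6.80 CPM in hypidone 2, 7 and 8, at 12.8, 14.3 and 14.9 CPM in MCAO 4, 5 and 6, and at 6.90, 9.88 and 6.64 CPM in control 4, 5 and 6. All 3 MCAO libraries lay above all 6 others, and the hypidone and control ranges overlapped. For MCAO against control the adjusted p was 0.0208, and for hypidone against MCAO it was 0.00985 (edgeR quasi-likelihood test, Benjamini-Hochberg over 14756 genes). Group means were 6.36 ± 0.45 CPM with hypidone, 14.0 ± 1.10 CPM in MCAO and 7.81 ± 1.80 CPM in control (SD, n = 3 each). The MCAO call was lost without control 4, control 6 or MCAO 6 (adjusted p = 0.0776, 0.0822 and 0.0708) and in a fit of only the groups compared (adjusted p = 0.0792). The hypidone call was lost without hypidone 7 (adjusted p = 0.0510). Across the 10 alternative settings other than leaving out a single library, the MCAO estimate stayed between 0.73 and 1.09.

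Endothelial, astrocyte and microglial markers had calls in the same direction as Spry1, as did the macrophage and oligodendrocyte precursor markers given above. Of 6 endothelial genes, 3 rose with MCAO and 1 fell with hypidone against MCAO, and none went the other way past the test. Their summed level was 153 to 191 CPM with hypidone, 189 to 380 CPM in MCAO and 107 to 176 CPM in control, with none of the 6 at 0. Astrocyte markers rose in 2 of 6 cases with MCAO and fell in 2 of 6 with hypidone, with sums of 2390 to 2822 CPM, 2687 to 6282 CPM and 2054 to 3042 CPM in the hypidone, MCAO and control groups. Microglial markers also rose in 2 of 6 cases with MCAO and fell in 2 of 6 with hypidone, with sums of 418 to 502 CPM, 448 to 1352 CPM and 393 to 420 CPM in the hypidone, MCAO and control groups. Their part in the Spry1 result was not tested. In these bulk samples, a change in the number of cells of a type and a change in RNA per cell cannot be told apart.

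Spred2 passed the test in both comparisons, also without any 1 library. It encodes a membrane-associated protein of the SPRED family, which binds Ras pathway components and limits ERK activation. The gene lies on the plus strand of mm10 at chr11:19924375-20024026. Spred2 was at 126, 134 and 122 CPM in hypidone 2, 7 and 8, at 77.1, 67.5 and 77.4 CPM in MCAO 4, 5 and 6, and at 112, 134 and 121 CPM in control 4, 5 and 6. Every MCAO library was below every other library. Means were 127 ± 6.26 CPM with hypidone, 74.0 ± 5.62 CPM in MCAO and 122 ± 11.1 CPM in control (SD, n = 3 each). Adjusted p was 0.00586 for MCAO against control and 0.00563 for hypidone against MCAO (edgeR). Leaving out any 1 library gave between -0.79 and -0.65 for MCAO against control and between 0.70 and 0.82 for hypidone against MCAO, with an adjusted p of at most 0.0276 and 0.0349. In the authors' deposited table Spred2 had a fold of 0.605 with MCAO and 1.71 with hypidone against MCAO, at q = 0.000232 and 1.61e-07.

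Pan-neuronal markers had sums of 8918 to 10019 CPM with hypidone, 4492 to 8380 CPM in MCAO and 6483 to 10425 CPM in control. None of their 6 genes passed the test for MCAO against control and 1 rose for hypidone against MCAO, with no marker at 0 in any library. The part of neurons in the Spred2 difference was not tested.

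The promoters of Spry1 and Spred2 are shown because these genes carried the calls. Each window runs from 250 bases before to 50 bases after the gene start in RefSeq (GRCm38.p6) and is printed on the gene's own strand: chr3:37639697-37639996 (plus strand) and chr11:19924192-19924491 (plus strand). Capitals would mark a match to any of 6 motifs, searched on both strands: the CRE motif TGACGTCA, the AP-1 motif TGANTCA, the ETS motif CCGGAA, the EGR motif GCGNGGGCG, the CArG box and the glucocorticoid response element. Neither window has a match, so both stand in lower case throughout.
Spry1 promoter: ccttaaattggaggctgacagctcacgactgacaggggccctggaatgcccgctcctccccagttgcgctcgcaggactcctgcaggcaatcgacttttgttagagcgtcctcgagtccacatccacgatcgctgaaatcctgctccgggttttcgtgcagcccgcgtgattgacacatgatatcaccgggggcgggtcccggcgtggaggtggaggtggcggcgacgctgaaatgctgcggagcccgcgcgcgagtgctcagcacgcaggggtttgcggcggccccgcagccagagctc
Spred2 promoter: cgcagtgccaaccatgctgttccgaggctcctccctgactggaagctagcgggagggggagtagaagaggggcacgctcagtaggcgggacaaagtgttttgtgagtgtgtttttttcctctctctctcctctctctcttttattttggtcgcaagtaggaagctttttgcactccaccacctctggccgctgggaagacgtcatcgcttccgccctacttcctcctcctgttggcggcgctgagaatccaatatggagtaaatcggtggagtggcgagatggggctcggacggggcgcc

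The pattern over the 9 libraries was matched to other genes by the root mean square difference of log2 CPM after centring each gene on its mean. Among 12331 candidate genes, Fam214a and Asl lay nearest to Spry1, at 0.098 and 0.103. Asl, for example, was at 11.0, 10.7 and 11.6 CPM with hypidone, 21.0, 22.4 and 24.6 CPM in MCAO and 11.8, 13.7 and 10.4 CPM in control. Nova2 and Elavl3 lay nearest to Spred2, at 0.080 and 0.087. Elavl3 was at 248, 252 and 241 CPM with hypidone, 169.7, 141 and 152 CPM in MCAO and 259, 276 and 258 CPM in control. Of the pairs among the 10 members, Spry2 and Spred1 were the most alike at 0.203, followed by Dusp6 and Spry4 at 0.293, and Dusp4 and Spry1 the least at 1.31.

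Spry4 had the largest difference of a member that missed the threshold in both comparisons while its groups stayed apart. It encodes another Sprouty inhibitor of Ras activation. Spry4 was at 16.8, 17.5 and 14.9 CPM in hypidone 2, 7 and 8, at 5.32, 7.32 and 14.1 CPM in MCAO 4, 5 and 6, and at 15.4, 17.0 and 17.3 CPM in control 4, 5 and 6. MCAO 6 came close to the other groups without reaching them. The log2 fold change was -0.90 ± 0.31 for MCAO against control (edgeR adjusted p = 0.0690) and 0.88 ± 0.31 for hypidone against MCAO (adjusted p = 0.0789). Without MCAO 6 these values were -1.39 (adjusted p = 0.0154) and 1.38 (adjusted p = 0.0190). DESeq2 called both, with -0.89 (adjusted p = 0.0301) and 0.87 (adjusted p = 0.0379).

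Spry2, a Sprouty gene with a broad expression in brain, lies on the minus strand of mm10 at chr14:105891947-105896819. It was at 69.3, 61.3 and 56.6 CPM with hypidone, at 40.8, 31.0 and 49.0 CPM in MCAO and at 62.2, 36.1 and 62.0 CPM in control. Hypidone libraries were above all MCAO libraries, and control 5 lay within the MCAO range. The estimates of -0.41 ± 0.23 for MCAO against control (edgeR adjusted p = 0.237) and 0.63 ± 0.23 for hypidone against MCAO (adjusted p = 0.0910) missed the threshold. Without control 5 they were -0.63 (adjusted p = 0.0485) and 0.64 (adjusted p = 0.0326). Limma voom with quality weights called the second with all libraries, at 0.38 (adjusted p = 0.0317). The authors' deposited table gave Spry2 a fold of 0.756 with MCAO (q = 0.389) and 1.54 for hypidone against MCAO (q = 0.0263).

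Ratios of Spry1 to the other Sprouty genes within each library do not depend on the scaling between libraries, and show differences between groups, not which gene has the higher level. The ratio of Spry1 to Spry2 counts was 0.0922 to 0.120 with hypidone, 0.305 to 0.462 in MCAO and 0.107 to 0.274 in control. The ratio of Spry1 to Spry4 counts was 0.337 to 0.457 with hypidone, 1.06 to 2.41 in MCAO and 0.383 to 0.582 in control. Both ratios were higher in every MCAO library than in any other library. These ratios were chosen after the values were seen and were not tested.

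Spred1 encodes a protein that brings the Ras inhibitor neurofibromin to the membrane. It lies on the plus strand of mm10 at chr2:117121374-117182279. Spred1 was at 255, 279 and 266 CPM with hypidone, at 217, 188 and 200.4 CPM in MCAO and at 258, 164 and 258 CPM in control. Hypidone libraries lay above MCAO libraries, while control 5 was the lowest of the 9. The log2 fold change was -0.17 ± 0.17 for MCAO against control (edgeR adjusted p = 0.516) and 0.40 ± 0.17 for hypidone against MCAO (adjusted p = 0.135). Without control 5 hypidone against MCAO gave 0.41 (adjusted p = 0.0334), in a fit where the filter, the scaling and the estimate of spread also change with the libraries. Limma voom with quality weights called both comparisons, at -0.32 (adjusted p = 0.0299) and 0.43 (adjusted p = 0.00440). The authors' deposited table gave Spred1 a fold of 0.891 with MCAO (q = 0.679) and 1.32 for hypidone against MCAO (q = 0.00852).

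Among the phosphatases, Dusp6 and Dusp4 had the largest estimates, with very uneven MCAO libraries. Dusp6 encodes a cytoplasmic phosphatase with a strong preference for ERK, on the plus strand of mm10 at chr10:99263231-99267489. Its values were 130.4, 98.7 and 87.9 CPM with hypidone, 23.8, 43.4 and 91.8 CPM in MCAO 4, 5 and 6, and 100.3, 64.8 and 85.2 CPM in control. MCAO 6 lay inside the range of both other groups and MCAO 4 and 5 below them. The estimates were -0.65 ± 0.41 for MCAO against control (edgeR adjusted p = 0.281) and 1.0 ± 0.42 for hypidone against MCAO (adjusted p = 0.125). Without MCAO 6 they were -1.31 (adjusted p = 0.0401) and 1.65 (adjusted p = 0.0310), and without MCAO 4 they were -0.31 and 0.65.

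Dusp4, on the plus strand of mm10 at chr8:34807297-34819894, encodes a nuclear phosphatase of ERK, JNK and p38. It was at 11.3, 10.9 and 8.58 CPM with hypidone, at 2.53, 1.90 and 10.9 CPM in MCAO 4, 5 and 6, and at 7.44, 18.4 and 7.54 CPM in control 4, 5 and 6. The highest and the lowest MCAO library differed 5.75-fold. Control 5 was the highest of all libraries. Estimates of -1.12 ± 0.64 for MCAO against control (edgeR adjusted p = 0.232) and 1.0 ± 0.63 for hypidone against MCAO (adjusted p = 0.291) missed the threshold. They were -2.33 (adjusted p = 0.0297) and 2.20 (adjusted p = 0.0411) without MCAO 6, and the first was -0.55 without control 5. Limma voom with quality weights gave an opposite sign for the first, at 0.15 (adjusted p = 0.782).

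Dusp1, on the minus strand of mm10 at chr17:26505590-26562128, is an immediate early gene for a nuclear phosphatase of p38, JNK and ERK. It was at 106 CPM in hypidone 2, 74.2 CPM in hypidone 7 and 63.1 CPM in hypidone 8. Its MCAO values were 46.1, 48.0 and 128 CPM in libraries 4, 5 and 6, and its control values 109, 20.1 and 71.7 CPM in libraries 4, 5 and 6. MCAO 6 was the highest and control 5 the lowest of all 9 libraries. Estimates were 0.14 ± 0.58 for MCAO against control and 0.13 ± 0.58 for hypidone against MCAO (edgeR adjusted p = 0.881 and 0.890). No direction can be given, since the first was -0.29 without control 5 and -0.50 without MCAO 6, and the second turned negative in 3 of the 9 fits that left out a library. In GENCODE M21 exons of Dusp1 overlap those of Ergic1 on the other strand. The length implied by the FPKM of Dusp1 was 1942 bases, against 3311 bases of merged exons. The counted exons may thus leave out the overlap, and whether reads of the pair were mixed is not known.

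Dusp5, on the plus strand of mm10 at chr19:53529109-53542431, encodes a nuclear phosphatase specific to ERK and varied least over the 9 libraries among the 5 phosphatase genes. It was at 22.6, 16.3 and 19.1 CPM with hypidone, at 12.5, 14.0 and 24.4 CPM in MCAO and at 20.5, 24.1 and 17.7 CPM in control. Groups overlapped, with MCAO 6 the highest and MCAO 4 the lowest of all libraries. Estimates were -0.29 ± 0.26 for MCAO against control (edgeR adjusted p = 0.450) and 0.19 ± 0.26 for hypidone against MCAO (adjusted p = 0.646), and limma voom with quality weights turned both, to 0.23 and -0.31. Exons of Dusp5 also overlap a gene on the other strand.

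The promoters of Dusp1 and Dusp5 are shown because they held the only CRE and CArG box matches among the 8 members with an entry in the RefSeq promoter table. The windows are chr17:26508423-26508722 (minus strand) and chr19:53528895-53529194 (plus strand) of GRCm38.p6, with capitals at the matches. Dusp1 has 1 CRE, TGACGTCA, a sequence bound by CREB family factors and present in 1.79% of the 32851 promoter windows in the table. Dusp5 has 2 adjacent CArG boxes, the core of the serum response element, a motif present in 1.63% of windows. The ETS motif was in 2 of the 8 members, Dusp14 and Spry2, and in 14.9% of all windows. AP-1, EGR and glucocorticoid motifs were in none of the 8 and in 7.81%, 5.55% and 0.00913% of windows. A match of letters is a description and does not show that a factor binds there.
Dusp1 promoter: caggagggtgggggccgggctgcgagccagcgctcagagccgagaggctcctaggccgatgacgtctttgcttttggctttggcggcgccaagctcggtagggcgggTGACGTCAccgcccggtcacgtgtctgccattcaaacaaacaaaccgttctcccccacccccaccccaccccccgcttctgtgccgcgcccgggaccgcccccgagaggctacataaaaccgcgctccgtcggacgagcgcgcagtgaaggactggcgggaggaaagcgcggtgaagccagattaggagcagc
Dusp5 promoter: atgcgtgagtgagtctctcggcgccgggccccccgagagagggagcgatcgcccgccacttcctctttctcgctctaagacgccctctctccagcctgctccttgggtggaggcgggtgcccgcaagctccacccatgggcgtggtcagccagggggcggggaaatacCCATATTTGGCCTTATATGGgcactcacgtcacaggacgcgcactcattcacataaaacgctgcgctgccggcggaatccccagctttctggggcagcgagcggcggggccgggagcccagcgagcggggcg

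Dusp14, which encodes a small phosphatase without the kinase-binding domain of the other 4 phosphatases, was even with hypidone and uneven elsewhere. The gene lies on the minus strand of mm10 at chr11:84048041-84069261. It was at 109.5, 109.5 and 103 CPM in hypidone 2, 7 and 8, at 61.4, 40.7 and 74.9 CPM in MCAO 4, 5 and 6, and at 118, 32.5 and 113 CPM in control 4, 5 and 6. Hypidone libraries lay above all MCAO libraries, and control 5 lay below every other library. Estimates of -0.58 ± 0.42 for MCAO against control (edgeR adjusted p = 0.346) and 0.86 ± 0.42 for hypidone against MCAO (adjusted p = 0.175) missed the threshold. Without control 5 they were -0.97 (adjusted p = 0.0201) and 0.87 (adjusted p = 0.0199), and the fit of only hypidone and MCAO libraries also called the second (adjusted p = 0.0419). The authors' deposited table gave Dusp14 a fold of 1.81 for hypidone against MCAO at q = 0.00500.

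**Figure D2:**
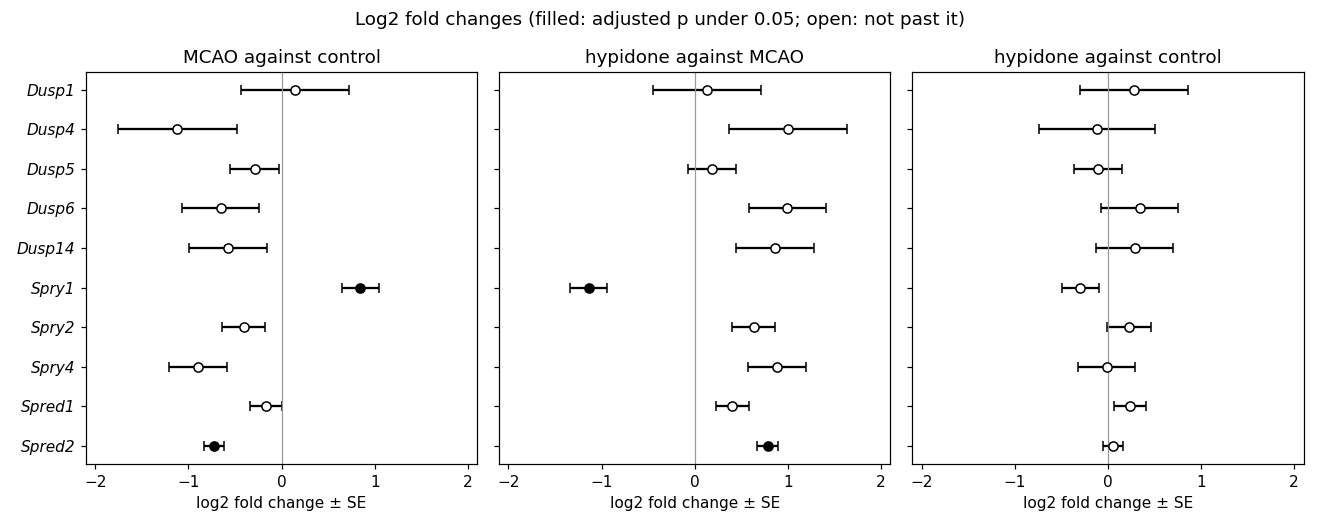
Log2 fold changes ± SE of the 10 genes in the 3 comparisons (edgeR, 3 libraries a group); filled points have an adjusted p under 0.05. Spry1 and Spred2 are filled for MCAO against control and for hypidone against MCAO, and no point is filled for hypidone against control.

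Counted over the list, MCAO against control had 1 of 10 members higher and 1 lower, where 10.6% and 9.81% of all tested genes were higher and lower. These shares, 10% each, are near that background and are no result about the list. The median log2 fold change was -0.49 over the members and 0.01 over all tested genes, and 8 of the 10 estimates were below 0. MCAO and control values did not overlap for 3 of 10 members (1 higher and 2 lower), against 33.5% of all tested genes.

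For hypidone against MCAO, 1 of 10 members was higher and 1 lower, again near the background of 8.23% higher and 8.28% lower. The median log2 fold change was 0.71 over the members and -0.04 over all tested genes, and 9 of the 10 estimates were above 0. Hypidone and MCAO values did not overlap for 6 of 10 members (5 higher and 1 lower), against 39.9% of all tested genes. Both comparisons use the same MCAO libraries, so their opposite signs are not independent of each other. The labels do not say that the hypidone and MCAO groups were matched for vehicle or sampling time, which cannot be told apart from the drug. All 5 red cell markers rose with hypidone against MCAO, with sums of 71.3 to 187 CPM with hypidone and 4.31 to 28.0 CPM in MCAO, and their part in the members' values was not tested.

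For hypidone against control no member passed the test, and neither did any other gene, so the background is 0% higher and 0% lower (edgeR; 131 genes had an unadjusted p under 0.05, none of them a member). DESeq2 called 1 gene and limma voom 0. No member's groups were apart, against 6.57% of all tested genes. Spry1 averaged 6.36 ± 0.45 CPM with hypidone and 7.81 ± 1.80 CPM in control, a log2 fold change of -0.30 ± 0.20. Spred2 averaged 127 ± 6.26 CPM with hypidone and 122 ± 11.1 CPM in control, at 0.06 ± 0.11. The other 8 estimates lay between -0.12 for Dusp4 and 0.34 for Dusp6, with standard errors of 0.17 for Spred1 to 0.63 for Dusp4, so that differences of this size were not detectable for the most variable genes.

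**Figure D3:**
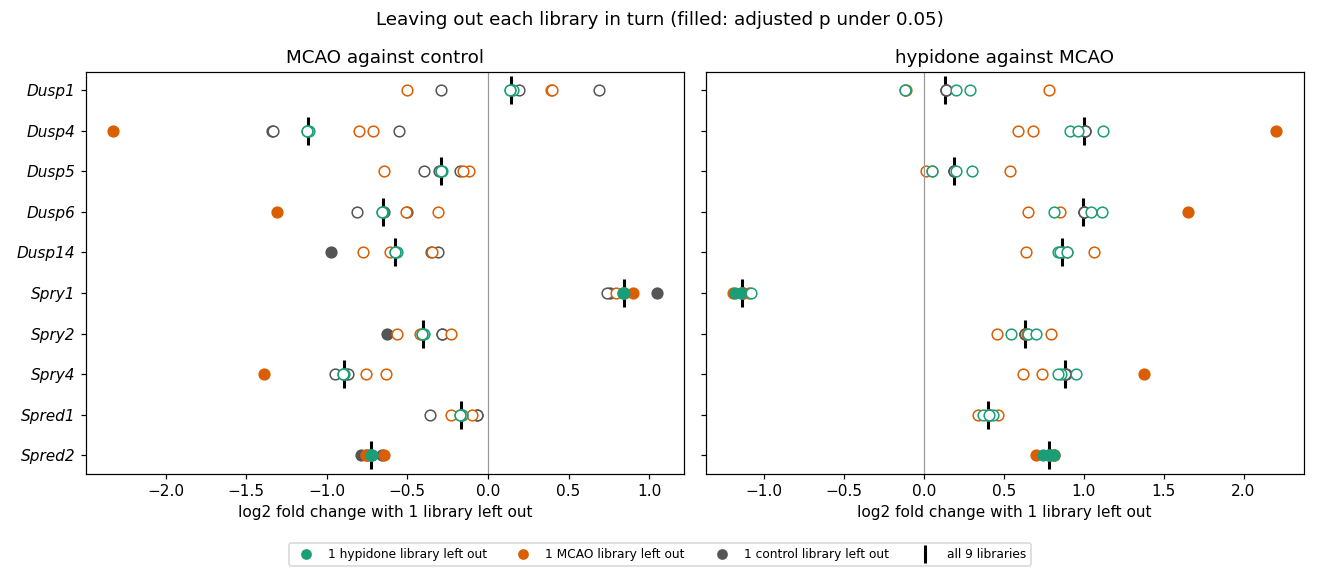
Log2 fold changes of the 10 genes with each of the 9 libraries left out in turn, for MCAO against control and hypidone against MCAO; colours give the group of the library left out, black bars the value with all 9, and filled points an adjusted p under 0.05. Spred2 is filled throughout, and Dusp4, Dusp6 and Spry4 are filled when MCAO 6 is left out.

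MCAO 6 was the highest of the 3 MCAO libraries for 9 of the 10 members (all but Spred1), whereas 17.9% of all tested genes were highest there. For Spred2 this was a near tie, at 77.4 CPM against 77.1 CPM in MCAO 4. Scaled by library totals alone, Spred1 was highest in MCAO 6 (206.6 CPM against 204.1 CPM in MCAO 4). Spry1 was then highest in MCAO 5 (15.46 CPM against 15.40 CPM in MCAO 6). MCAO 4 was the lowest for 5 members and MCAO 5 for the other 5, against 38.5% and 38.1% of all tested genes. From the lowest to the highest MCAO library the level differed 5.75-fold for Dusp4, 3.85-fold for Dusp6, 2.77-fold for Dusp1 and 2.65-fold for Spry4, and 1.15-fold to 1.17-fold for Spry1, Spred1 and Spred2.

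Most transcripts that ERK is known to induce had the same library on top: 14 of the 17 tested were highest in MCAO 6 among the MCAO libraries. By contrast, Etv1 and Etv5 were highest in MCAO 4 and Ccnd1 in MCAO 5. Etv5 was lowest in MCAO 6, at 64.5, 44.5 and 42.7 CPM in MCAO 4, 5 and 6. Some of the 14 were near ties, such as Myc at 10.7 and 11.0 CPM and Phlda1 at 9.61 and 10.1 CPM in MCAO 5 and 6. The transcription factor gene Fos was at 118, 70.5 and 51.0 CPM in hypidone 2, 7 and 8, at 7.25, 13.5 and 229 CPM in MCAO 4, 5 and 6, and at 82.2, 23.5 and 58.6 CPM in control 4, 5 and 6. Fosb, of the same family, was at 6.28, 6.23 and 179 CPM in MCAO 4, 5 and 6, and at most 33.9 CPM in any hypidone or control library. Egr1 was at 36.0, 43.1 and 289.6 CPM in MCAO 4, 5 and 6, and Nr4a1 at 22.3, 14.1 and 165 CPM. In MCAO 6 Fos and Fosb thus exceeded every other library, while Egr1 reached a level between those of control 5 and control 6. Fos, Fosb, Egr1 and Nr4a1 were named after their values were seen.

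Of the 11 other phosphatase, Sprouty and SPRED genes 3 were highest in MCAO 6 and 5 in MCAO 4. MCAO 6 was also highest for 2 of 21 Ras-ERK cascade genes, 1 of 15 other negative regulators, 2 of 12 JNK and p38 kinases and 4 of 19 receptor tyrosine kinases. The sources used here give neither the time between surgery and sampling nor the dissection of single libraries, and their part in the differences between MCAO libraries was not tested. Of the 12 marker lists, MCAO 6 had the highest sum among the MCAO libraries for astrocytes and hippocampal neurons, the lowest for red cells, and a sum between the others for the remaining 9. Astrocyte markers summed to 2687, 5012 and 6282 CPM in MCAO 4, 5 and 6, and macrophage markers to 58.5, 1951 and 266 CPM. The part of these cell types in the differences between MCAO libraries was not tested.

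**Figure D4:**
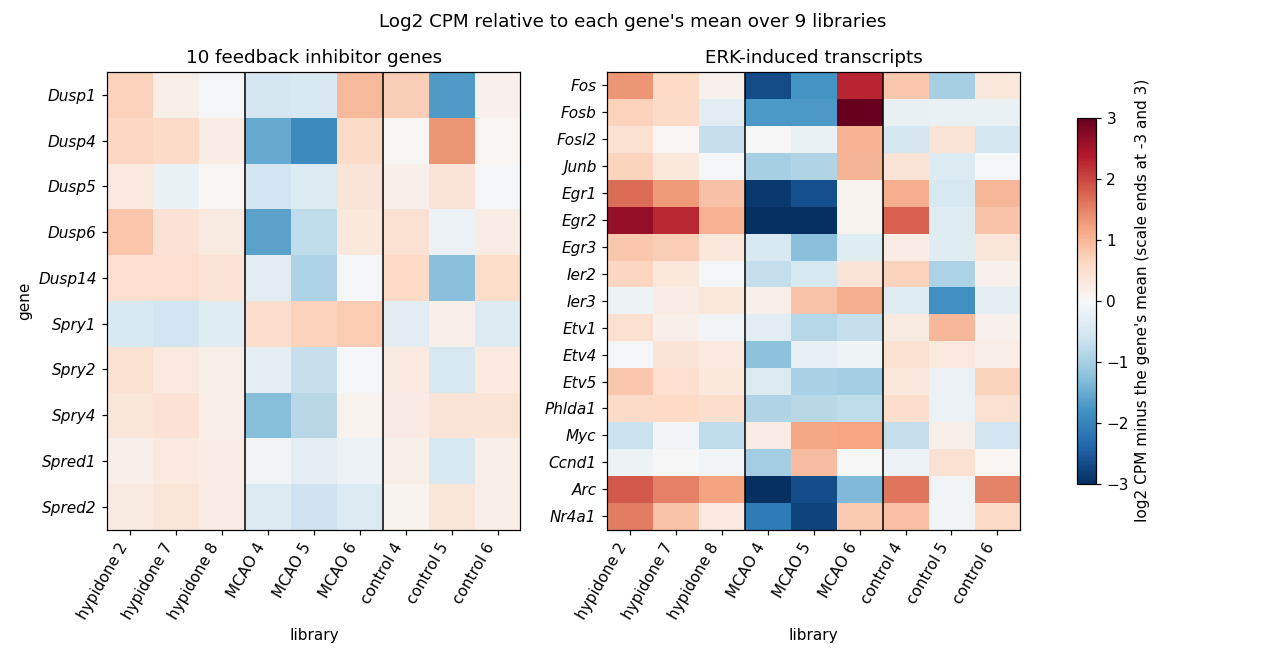
Log2 CPM minus each gene's mean over the 9 libraries for the 10 feedback inhibitor genes and the 17 tested ERK-induced transcripts (rows), by library (columns: hypidone, MCAO, control); the colour scale ends at -3 and 3, and values beyond it take the end colours. MCAO 6 is the highest MCAO library for 9 of the 10 and 14 of the 17 genes, and MCAO 4 and 5 are low for Dusp4, Dusp6, Spry4, Fos, Egr1 and Egr2.

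Changes of the genes that follow are log2 fold changes ± SE. The ERK-induced list as a whole had 2 genes higher and 4 lower of 17 for MCAO against control, with a median of -0.75. Over all tested genes 10.6% were higher and 9.81% lower. For hypidone against MCAO 4 were higher and 1 lower, with a median of 0.69, where 8.23% of all tested genes were higher and 8.28% lower. Fosl1, with 148 counts in all, was not tested. Phlda1, a growth-factor-induced gene, was at 25.6, 26.0 and 24.7 CPM with hypidone, 9.13, 9.61 and 10.1 CPM in MCAO and 24.8, 15.1 and 23.7 CPM in control, and differed by -1.14 ± 0.19 for MCAO and 1.40 ± 0.19 for hypidone against MCAO. The ETS-family gene Etv5 fell by 1.09 ± 0.24 with MCAO and rose by 1.34 ± 0.25 with hypidone against MCAO. Its MCAO call was lost without control 4, control 6 or MCAO 6, with an adjusted p of at most 0.0681, and its hypidone call without MCAO 6 (adjusted p = 0.0509). Arc, a synaptic activity gene, fell by 3.41 ± 0.62 with MCAO and rose by 3.78 ± 0.63 with hypidone against MCAO.

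Of 11 other phosphatase, Sprouty and SPRED genes, 3 fell with MCAO and none rose, where 9.81% of all tested genes were lower and 10.6% higher. The same 3 were higher with hypidone against MCAO, where 8.23% of all tested genes were higher. The list medians were -0.15 and 0.29. Spry3, a Sprouty gene, was at 10.2, 8.12 and 8.08 CPM with hypidone, at 2.16, 2.68 and 1.73 CPM in MCAO and at 7.51, 13.0 and 7.96 CPM in control. Spred3, the remaining SPRED gene, was at 44.6, 41.2 and 33.5 CPM with hypidone, at 11.6, 10.9 and 11.7 CPM in MCAO and at 28.7, 47.2 and 40.7 CPM in control. Their MCAO libraries lay below all others without overlap.

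Spry3 fell by 2.11 ± 0.29 and Spred3 by 1.77 ± 0.19 with MCAO, and they rose by 2.00 ± 0.29 and 1.80 ± 0.20 with hypidone against MCAO. These calls held without any 1 library, with an adjusted p of at most 0.0323. Dusp3, a small phosphatase that acts on ERK and JNK, fell by 0.96 ± 0.18 with MCAO and rose by 1.08 ± 0.18 with hypidone against MCAO. Of the 3 SPRED genes, Spred2 and Spred3 thus fell with MCAO and Spred1, at -0.17 ± 0.17, did not pass the edgeR test.

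Of 21 genes of the Ras-ERK cascade that these inhibitors act on, 1 rose with MCAO and none fell, where 10.6% and 9.81% of all tested genes were higher and lower. With hypidone against MCAO 2 fell and none rose, where 8.28% of all tested genes were lower and 8.23% higher. The list medians were 0.16 and -0.14. Mapk3, an ERK kinase gene, was at 164, 184 and 159 CPM with hypidone, 337, 247 and 279.5 CPM in MCAO and 154, 228 and 137 CPM in control, a log2 fold change of 0.74 ± 0.20 with MCAO and -0.77 ± 0.20 for hypidone against MCAO. The first call was lost without any 1 library other than control 5 or MCAO 5, and the second without any other than control 5, control 6 or MCAO 5, with an adjusted p of at most 0.115 and 0.121. Ptpn11, whose phosphatase SHP2 promotes Ras activation, fell by 0.52 ± 0.15 with hypidone against MCAO, a call lost without any 1 library other than control 5 or MCAO 5 (adjusted p at most 0.151).

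Other negative regulators of the pathway had 0 of 15 genes past the test for MCAO against control, with a median of -0.07. The shares over all tested genes were 10.6% higher and 9.81% lower. For hypidone against MCAO 1 of the 15 was lower, with a list median of -0.06, where 8.28% of all tested genes were lower. That gene was the adaptor gene Dok1, at 0.835, 1.33 and 1.41 CPM with hypidone and 1.73, 9.56 and 3.73 CPM in MCAO, which fell by 2.07 ± 0.59, or 1.22 without MCAO 5 (adjusted p = 0.0855). Its call was also lost without any hypidone library, MCAO 6, control 4 or control 6.

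JNK and p38 pathway kinases had 1 of 12 higher and 2 lower with MCAO, and 2 higher with hypidone against MCAO, with medians of -0.11 and 0.11. Beside these counts, 10.6% of all tested genes were higher and 9.81% lower with MCAO, and 8.23% higher with hypidone against MCAO. Mapk11 and Mapk8, for a p38 and a JNK kinase, fell by 1.37 ± 0.38 and 0.57 ± 0.15 with MCAO and rose by 1.76 ± 0.39 and 0.62 ± 0.15 with hypidone against MCAO, and Map2k3, which activates p38, rose by 0.91 ± 0.21 with MCAO. Control 5, with 15.1 CPM of Mapk11, lay within the MCAO range of 13.6 to 16.7 CPM. The MCAO call of Mapk11 was lost without any 1 library other than control 5 or MCAO 4 (adjusted p at most 0.1205). That of Mapk8 was lost without control 4, control 6, MCAO 5, MCAO 6 or hypidone 7 (at most 0.103) and that of Map2k3 without control 4, control 6 or MCAO 6 (at most 0.0693). Without MCAO 6 or any hypidone library the hypidone calls of Mapk11 and Mapk8 were lost, with an adjusted p of at most 0.0741 and 0.106.

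Receptor tyrosine kinases had 4 of 19 genes higher and 1 lower with MCAO, and 3 lower with hypidone against MCAO, with medians of 0.39 and -0.20. Among all tested genes 10.6% were higher and 9.81% lower with MCAO, and 8.28% lower with hypidone against MCAO. Csf1r, the microglial growth factor receptor gene, and Pdgfrb, a pericyte receptor gene, rose by 1.31 ± 0.25 and 1.57 ± 0.32 with MCAO and had -1.03 ± 0.25 and -1.29 ± 0.32 for hypidone against MCAO, both past the test. Kit, the stem cell factor receptor gene, fell by 1.37 ± 0.35 with MCAO, a call lost without MCAO 6 (adjusted p = 0.0926). Without MCAO 6 or any hypidone library the hypidone calls of Csf1r and Pdgfrb were lost, with an adjusted p of at most 0.101 and 0.0995. In the fit of only MCAO and control libraries the MCAO calls of Etv5, Dusp3, Mapk3, Mapk11, Mapk8, Map2k3, Pdgfrb and Kit were also lost (adjusted p from 0.0509 for Dusp3 to 0.101 for Mapk3 and Mapk11). In that of only hypidone and MCAO libraries the calls of Dok1, Ptpn11 and Csf1r were lost (adjusted p = 0.0521 for Csf1r and 0.0717 for Dok1 and Ptpn11). With limma on log2 FPKM plus 1 the MCAO calls of Kit (adjusted p = 0.0551) and Mapk11 (0.0887) and the hypidone calls of Dok1 (0.0965) and Pdgfrb (0.0587) were lost. Without a filter on low counts that of Ptpn11 was lost (0.0604), and without control 5 and MCAO 5 together that of Dok1 (0.0546). Medians over all tested genes, beside those of the lists, were 0.01 for MCAO against control and -0.04 for hypidone against MCAO.

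Levels of different members are compared here per length. On the deposited FPKM (counts scaled by gene length and library total), Spred1, Dusp14, Dusp6 and Dusp1 led in control, at 31.5 ± 7.07, 26.7 ± 14.4, 25.6 ± 5.09 and 33.9 ± 22.4 FPKM (SD, n = 3 each), which do not differ beyond their spread. Spry2 and Dusp5 followed at 11.8 ± 3.17 and 11.3 ± 1.93 FPKM and Dusp4 at 4.55 ± 2.66 FPKM. Spred2, Spry1 and Spry4 were last at 3.19 ± 0.34, 3.16 ± 0.79 and 1.58 ± 0.11 FPKM. The place of Spred2 rests on the length used: its FPKM imply 37937 bases, against 4619 bases of merged exons in GENCODE M21, a factor of 8.21. The implied length was 2.18 times that of GENCODE for Spry4, 2.13 times for Spry2 and 0.587 times for Dusp1.

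Over merged GENCODE exons Spred2 had 26.2 ± 2.82 FPKM in control, the fourth of the 10 after Dusp14 at 44.4 ± 23.9, Spred1 at 32.9 ± 7.39 and Dusp6 at 26.3 ± 5.22 FPKM. Spry2 came next at 25.2 ± 6.75 FPKM, and Dusp6, Spred2 and Spry2 do not differ beyond their spread. Spry1 was then the lowest in control at 2.66 ± 0.66 FPKM, below Spry4 at 3.45 ± 0.24 FPKM. On this length the order of these Sprouty genes was turned in MCAO, with 4.92 ± 0.67 FPKM for Spry1 and 1.92 ± 1.03 FPKM for Spry4. The deposited FPKM show no such turn. There Spry1 was above Spry4 in control (3.16 and 1.58 FPKM) and in MCAO (5.83 and 0.88 FPKM). Differences between groups for 1 gene do not depend on the length.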

How the data were processed

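RNA of mouse brain was sequenced in 9 libraries, 3 per group, prepared with a VAHTS Universal V6 kit, per the labels' protocols. The deposited table holds unnormalized counts for each gene symbol. The authors also deposited FPKM, which divide counts by library total and gene length. Their own comparisons were deposited as a ratio (fold) and q-value. The submitters' processing notes name mm10 and DESeq2, without version or role, and the aligner, counter and strand setting were not given in the sources used here. Every column matched 1 sample by title.

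Genes were filtered with edgeR's filterByExpr, which kept 14756 of 18138, and scaled with TMM. All 9 libraries entered 1 quasi-likelihood fit (edgeR 4.0.16, R 4.3.3) with 6 residual degrees of freedom. Tests were two-sided with Benjamini-Hochberg adjustment over all tested genes at 0.05. A standard error is the size of the log2 fold change over the square root of F. Log2 CPM used a prior count of 2. The pathway lists number 6 and the marker lists 12. The members and lists were chosen with earlier results of these data known. Pathway genes were named by a rule, up to 3 per list with the lowest p among those called. Patterns were likened for called members, naming 2 genes each with a mean log2 CPM of at least 1. Positions and exon lengths are from GENCODE M21 (mm10), promoters from RefSeq (GRCm38.p6), where 8 of 10 members matched. Alternatives were other scaling, filters and tools (DESeq2 1.42.0, limma 3.58.1), log2 of FPKM plus 1, fits of only the groups compared, a replicate block and leaving out each library. Removing control 5 and MCAO 5 together was added after seeing the data. The fit was tested on simulated data. No libraries agreed within sampling noise (lowest chi-square per degree of freedom 8.83).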

Additional observations from a re-analysis of the deposited data

How the results depend on the processing

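The SPRED gene Spred2 kept its direction and call in both comparisons under every alternative except the replicate block, which exists for MCAO against control alone, and the Sprouty gene Spry1 kept its direction under all of them. With edgeR 1567 genes were called higher and 1448 lower for MCAO against control, and 1215 higher and 1222 lower for hypidone against MCAO. Genes called for MCAO against control were 2373 higher and 2089 lower with DESeq2, and 3645 higher and 3783 lower with limma voom. They were 345 and 337 in a fit of only these groups, and 2323 and 2256 without control 5 and MCAO 5 together. For hypidone against MCAO they were 1845 higher and 2166 lower with DESeq2, and 3916 and 3715 with limma voom. They were 1050 and 970 in a fit of only these groups, and 2410 and 2370 without control 5 and MCAO 5 together. For hypidone against control DESeq2 called 1 higher. Members called lower with MCAO were 2 with DESeq2, 2 with limma voom and 3 without control 5 and MCAO 5 together, and members called higher were 0 in the fit of only these groups. Members called higher with hypidone against MCAO were 2 with DESeq2 (1845 of 14756 genes) and 4 with limma voom (3916 of 14756). They were 2 in the fit of only these groups (1050 of 14563 genes) and 4 without control 5 and MCAO 5 together (2410 of 14810). The causes were not tested.

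Leaving out each library in turn left 14892 to 15047 genes tested. With MCAO 480 to 2357 genes were higher and 594 to 1918 lower, with 0 to 1 members higher and 1 to 4 lower. For hypidone against MCAO 315 to 1752 genes were higher and 233 to 2123 lower, with 1 to 4 members higher and 0 to 1 lower. The 4 members lower with MCAO came without MCAO 6, where 594 of 14927 genes were lower. The 4 higher with hypidone came without control 5 (1617 of 14990 genes higher) or without MCAO 6 (388 of 14927).

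Signs turned for estimates that were called in neither direction. For MCAO against control limma voom gave 0.15 for Dusp4 and 0.23 for Dusp5, and Dusp1 had -0.0329 without control 5 and MCAO 5 together and -0.50 to 0.69 without single libraries. For hypidone against MCAO limma voom gave -0.55 for Dusp1 and -0.31 for Dusp5, and Dusp1 had -0.12 without control 5 and MCAO 5 together and -0.12 to 0.78 without single libraries. For hypidone against control limma voom gave -0.0285 for Dusp1, 0.37 for Dusp4 and 0.00752 for Spry4, and limma on log2 FPKM gave 0.000272 for Dusp4. Without control 5 and MCAO 5 together the values were -0.15 for Dusp1, 0.46 for Dusp4, 0.0231 for Dusp5, -0.10 for Dusp14 and 0.00897 for Spry4. Without single libraries they ran from -0.16 to 0.83 for Dusp1, -0.34 to 0.45 for Dusp4, -0.23 to 0.0168 for Dusp5, -0.11 to 0.56 for Dusp14, -0.0636 to 0.0519 for Spry4 and -0.00143 to 0.13 for Spred2.

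Control and MCAO share title numbers, and a replicate block on them called 0 genes higher and 0 lower, so 0 members each way, with 0.86 for Spry1 (adjusted p = 0.114) and -0.73 for Spred2 (adjusted p = 0.0827). Deviations of same-numbered libraries correlated at 0.12, 0.12 and -0.04 over genes, and those of differently numbered libraries at -0.15 to 0.12. With 3 libraries a group these values cannot decide whether the numbers pair the libraries. The lowest count of a member in a library was 73, for Dusp4 in MCAO 5.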
